A study of Mus musculus with 8 samples.

Results

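The genes described here are 10 members of the p53 and Bcl2 family apoptosis pathway, Trp53, Mdm2, Bax, Bak1, Bbc3, Pmaip1, Bcl2l11, Bcl2, Bcl2l1 and Mcl1, looked up by symbol among the 55291 gene symbols of the count table. All 10 were present in both deposited tables and all 10 passed the filter on low counts. The RNA came from ventricles of E10.5 mouse embryos (strain C57BL/6 in the sample labels, with the lines kept on C57BL/6N), with 4 libraries for the Pkn2 cKO genotype and 4 for control littermates. Both groups were homozygous for the floxed Pkn2 allele (Pkn2 fl/fl), and the cKO embryos carried in addition XMLC2-Cre, which is active in cardiomyocytes, while the controls were Cre-negative. Since whole ventricle was used, cells other than cardiomyocytes also contributed RNA to each library, and fewer cells of a type and less RNA per cell cannot be told apart.

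p53 is a transcription factor that is held at a low level by the ubiquitin ligase MDM2 and is stabilised by DNA damage and other stress. It switches on genes of cell cycle arrest and of apoptosis, and Mdm2 itself, so that the pathway limits its own activity. Much of this control acts on the p53 protein, which RNA does not measure. In the mitochondrial pathway of apoptosis, BAX and BAK open the outer mitochondrial membrane, BCL2, BCL-XL (from Bcl2l1) and MCL1 prevent this, and the BH3-only proteins PUMA (Bbc3), NOXA (Pmaip1) and BIM (Bcl2l11) bind the prosurvival proteins and release or activate the effectors. Deletion of Mdm2 kills mouse embryos through p53, and cardiomyocytes depend on MCL1 for survival.

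Sequence matches at the promoters were read from RefSeq (GRCm38.p6), in which 9 of the 10 genes had at least 1 window, with none for Pmaip1. In the 250 bases before the annotated start, a match to the p53 half-site consensus, on either strand, was found for Trp53, Mdm2 and Bax, the transcription factor, its ligase and an effector. They are shown because they place the letters p53 is known to bind beside the genes whose levels are compared below, with the match in capitals and the sequence 5′ to 3′ on the strand of the gene.
Trp53: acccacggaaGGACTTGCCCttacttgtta
Mdm2: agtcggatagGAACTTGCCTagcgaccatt
Bax: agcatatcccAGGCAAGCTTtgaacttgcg
The Trp53 stretch lies at chr11:69580274-69580303 on the plus strand, its match ending 66 bases before the start. The Mdm2 stretch lies at chr10:117710925-117710954 and the Bax stretch at chr7:45467080-45467109, both on the minus strand, with matches ending 177 and 192 bases before the start. Of all 27025 genes with a window, 8.20% held such a match, and a single half-site is a match of letters and not a shown binding site. The E-box CACGTG, a palindrome, was in the windows of Bax and Bbc3 and of 6.86% of all genes. The GC box GGGCGG, searched on both strands, was in windows of 6 of the 9 genes (Bax, Bbc3, Bcl2, Bcl2l11, Mcl1 and Mdm2) against 35.4% of all genes, and the median GC content was 65% over the 14 windows of the members against 52.4% over all windows.

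The libraries held 47559845 to 56660938 counts. Expression is given as CPM, counts on a common scale of library size with TMM factors. The targeted gene, Pkn2, averaged 81.2 ± 3.07 CPM in cKO against 144 ± 9.85 CPM in control ventricles (mean ± SD over 4 libraries), 56.3% of the control level, and every library labelled cKO lay below every control library. The counts are per gene and do not separate the floxed exon. The cardiomyocyte markers summed to 34976 to 38254 CPM in cKO and 34862 to 38832 CPM in control libraries, the highest of the marker lists examined. The 10 endothelial and endocardial markers were all higher in cKO, 6 of them past the threshold, and summed to 1579 to 1961 CPM against 1236 to 1442 CPM. The 10 macrophage markers were also all higher in cKO and summed to 10.01 to 40.6 CPM against 4.85 to 11.2 CPM, with 2 past the threshold. Epicardial markers summed to 237 to 344 CPM against 323 to 363 CPM, cushion mesenchyme markers to 580 to 670 CPM against 555 to 696 CPM, and erythroid markers to 1369 to 4802 CPM against 1499 to 4649 CPM, with none past the threshold. Hepatic and yolk sac markers were near 0, at 1.68 to 3.52 CPM in cKO and 3.32 to 30.6 CPM in control libraries, and none passed.

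All 10 genes were expressed, and their levels were compared on the scale that allows for gene length (TPM, which divides by gene length and sets every library to the same total). By the mean of the 8 libraries, Bax was highest at 129 TPM, followed by Trp53 at 95.2 TPM, Mcl1 at 86.4 TPM, Bak1 at 53.9 TPM, Mdm2 at 42.2 TPM and Bcl2l1 at 31.4 TPM. Bcl2l11 at 12.2 TPM, Bcl2 at 9.81 TPM, Bbc3 at 4.88 TPM and Pmaip1 at 1.21 TPM were the low members. In every library each gene was above the next in this order, except that Bcl2l11 exceeded Bcl2 in 7 of 8. The ranges of Trp53 and Mcl1 touched across libraries (86.4 to 107 TPM and 83.6 to 92.9 TPM), as did those of Bcl2l11 and Bcl2 (10.98 to 14.6 TPM and 8.45 to 11.5 TPM). Among the prosurvival members the order was thus Mcl1, then Bcl2l1, then Bcl2, and among the BH3-only members Bcl2l11, then Bbc3, then Pmaip1.

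**Figure D1:**
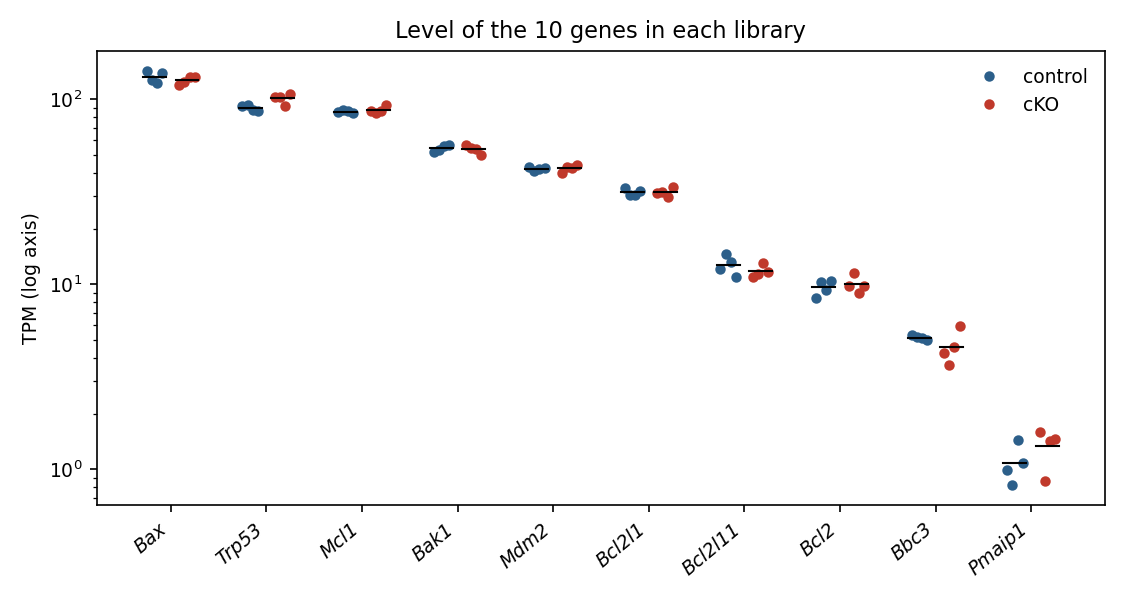
TPM of the 10 genes in each library on a log axis, ordered by the mean over the 8 libraries, with 1 point per library, control in blue and cKO in red, and a black bar at each group mean. The genes run from Bax at 129 TPM to Pmaip1 at 1.21 TPM, and the red and blue points of each gene overlap.

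None of the 10 genes differed between cKO and control ventricles past the threshold (adjusted p of at most 0.05, edgeR's quasi-likelihood F test, adjusted by Benjamini-Hochberg over 26820 genes), where 0.858% of all genes tested and 1.55% of those with a mean of at least 1 CPM did. The lowest adjusted p was 0.314, for Trp53. At an unadjusted p under 0.05 there was 1 of the 10, Trp53, where 12.8% of all genes tested had such a p and 6.61% had one with a higher cKO level. With DESeq2, limma-voom, edgeR's other settings and limma on TPM, the count of members past the threshold was also 0, and 0 to 2 of the 10 had an unadjusted p under 0.05. In no member were the CPM values of the groups without overlap, against 6.91% of all genes tested and 9.96% of those with a mean of at least 1 CPM. Higher in cKO by the fitted value were 4 of the 10, and the median log2 fold change was −0.017, with −0.00085 over all genes tested. Over genes with a mean of at least 1 CPM it was −0.017 too, and 6408 of those 14302 were higher in cKO. The median absolute log2 fold change was 0.087 over the 10 genes and 0.092 over the 14302 genes with a mean of at least 1 CPM.

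Trp53 (ENSMUSG00000059552, chromosome 11 of GRCm38, 69580359 to 69591873, plus strand) was measured at 104, 103, 95.1 and 108 CPM in cKO replicates 1 to 4 and at 96.5, 92.8, 92.2 and 92.7 CPM in control replicates 1 to 4. In CPM, cKO replicates 1, 2 and 4 exceeded all 4 controls, and cKO replicate 3 lay below control replicate 1. The log2 fold change was 0.13 (standard error, SE, 0.055, 95% interval 0.017 to 0.25), a level 1.10 times that of controls, with an unadjusted p of 0.0276 and an adjusted p of 0.314 by edgeR. On the TPM scale the values were 92.1 to 107 in cKO and 86.4 to 92.9 in control libraries, and again 3 of 4 cKO libraries were above every control. The fitted value was higher in cKO under every alternative tried, from 0.070 with a surrogate variable to 0.17 with limma on log2 TPM, and passed under none (adjusted p from 0.112 to 0.930).

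The endothelial and endocardial marker score, the mean log2 CPM of the 10 markers relative to the control mean, was 0.54, 0.23, 0.20 and 0.54 in cKO replicates 1 to 4. Trp53 was at 104, 103, 95.1 and 108 CPM in the same libraries. Without cKO replicates 1 and 4, a fit chosen after seeing the data, the Trp53 log2 fold change was 0.092 (SE 0.061, edgeR adjusted p = 0.788). Trp53 itself was highest in cKO replicates 4 and 1 (108 and 104 CPM), which also had the highest scores. Leaving them out lowers the value whatever the reason for their levels. The part of cell composition in the Trp53 value was not tested. In the annotation of GENCODE vM39, 263 exonic bases of Trp53, 3.56% of its exonic length, are shared with Wrap53, a gene on the opposite strand, and the library kit keeps no strand. The level of Wrap53 was 25.4 ± 1.36 CPM with Cre and 27.1 ± 0.425 CPM without it (SD over 4 libraries). The pseudogene Trp53-ps had 52 to 134 counts per library, against 4474 to 6034 for Trp53.

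Mdm2 (ENSMUSG00000020184, chromosome 10, 117688875 to 117710758, minus strand) was at 68.4, 74.1, 74.3 and 76.3 CPM in cKO and at 76.3, 68.6, 74.1 and 76.4 CPM in control replicates 1 to 4. The values interleaved, and the ranges of the groups were nearly equal. The log2 fold change was −0.011 (SE 0.058, 95% interval −0.13 to 0.11, edgeR adjusted p = 0.969), and its sign was positive in 8 of the 19 alternatives, so no direction is given. The interval reaches a level of 0.912 to 1.08 times that of controls.

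The ratio of Mdm2 to Trp53 was then taken within each library, on the TPM scale and with no test, since it is a score over the members. Its log2 value was −1.36, −1.25, −1.12 and −1.27 in cKO and −1.10, −1.19, −1.06 and −1.02 in control replicates 1 to 4. The ratio was lower in 3 of 4 cKO libraries than in every control library, and cKO replicate 3 lay among the controls. The group means were −1.25 ± 0.10 and −1.09 ± 0.072 (SD, n = 4 each), a difference of −0.16, and the difference ranged from −0.20 to −0.12 when single libraries were left out. On log2(TPM + 1) the fold change was 0.17 for Trp53 and 0.015 for Mdm2, so the ratio mostly restates the Trp53 values and is no further result.

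The genes whose pattern over the 8 libraries was most like that of Trp53, by the root mean square difference of standardised log2 CPM over 9850 genes with a mean of at least 10 CPM, were Ap3d1 (0.203), Xpo6 (0.222) and Ppp1r18 (0.232), where the median gene had 1.42. For Mdm2 they were Phf23 (0.224), Cops7a (0.331) and Dctn2 (0.336), where the median gene had 1.27. With 8 libraries and this many genes, close likeness is found for many patterns, and these names are a description only.

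**Figure D2:**
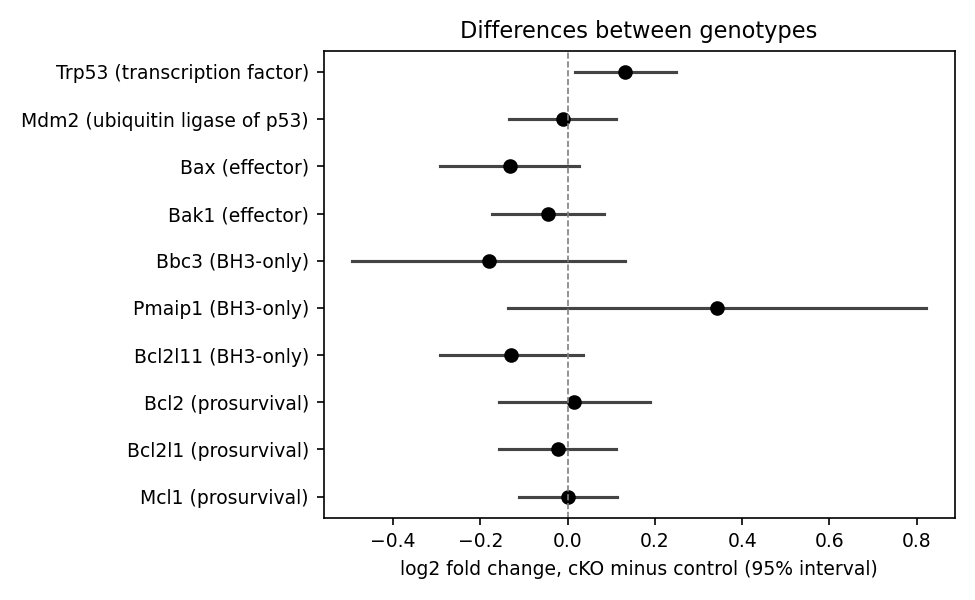
Log2 fold change (cKO minus control) of the 10 genes by edgeR, with points at the fitted value, bars for the 95% interval and a dashed line at 0. The interval of Trp53 (0.017 to 0.25) lies above 0 before adjustment over all genes, those of the other 9 include 0, and that of Pmaip1 (−0.14 to 0.82) is the widest.

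Of the effectors, Bax (ENSMUSG00000003873, chromosome 7, 45461697 to 45466898, minus strand) was at 30.6, 31.7, 34.9 and 34.5 CPM in cKO and at 39.6, 33.8, 32.5 and 38.5 CPM in control replicates 1 to 4. cKO replicates 1 and 2 lay below every control library, while cKO replicates 3 and 4 lay within the control range. The log2 fold change was −0.13 (SE 0.075, 95% interval −0.29 to 0.027, edgeR adjusted p = 0.510). On log2(TPM + 1) it was −0.059, nearer to 0 and in the same direction. The gene shares 10.3% of its exonic bases with a model on the same strand, Gm45808, so part of its counts is uncertain. Bak1 (ENSMUSG00000057789, chromosome 17, 27019810 to 27029009, minus strand) ranged from 59.2 to 65.2 CPM in cKO and from 61.3 to 70.1 CPM in controls, with 1 cKO library below every control. Its log2 fold change was −0.045 (SE 0.061, 95% interval −0.17 to 0.084, edgeR adjusted p = 0.839). Its exons overlap those of Ggnbp1 on the opposite strand over 18.2% of their length, but Ggnbp1 had 75 to 129 counts per library against 2957 to 3828 for Bak1.

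The BH3-only genes Bbc3 and Pmaip1, which p53 is known to induce, were the members with the fewest counts. Bbc3 (ENSMUSG00000002083, chromosome 7, 16309616 to 16318205, plus strand) was at 4.39, 3.84, 4.75 and 6.21 CPM in cKO and at 5.73, 5.21, 5.53 and 5.31 CPM in control replicates 1 to 4. In 3 cKO libraries it was below every control library and in cKO replicate 4 above every control library. The coefficient of variation was 21.1% among cKO and 4.28% among control libraries, where counting alone gives about 6.14%. The log2 fold change was −0.18 (SE 0.15, 95% interval −0.49 to 0.13, edgeR adjusted p = 0.702). Without cKO replicate 4 it was −0.32, without cKO replicate 2 it was −0.080, and with 1 surrogate variable −0.40, none past the threshold (edgeR adjusted p = 0.359, 0.900 and 0.709).

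Pmaip1 (ENSMUSG00000024521, chromosome 18, 66458533 to 66465565, plus strand) had 60 to 125 counts per library. It was at 2.44, 1.37, 2.24 and 2.23 CPM in cKO and at 1.42, 1.24, 2.17 and 1.68 CPM in control replicates 1 to 4. In CPM it was above every control library in 3 cKO libraries, though control replicate 3 was close to them, and cKO replicate 2 lay below 3 of the controls. In TPM only 2 cKO libraries were above every control, as cKO replicate 3 was at 1.42 TPM and control replicate 3 at 1.44 TPM. The log2 fold change of 0.34 was the largest of the 10 genes and the least precise (SE 0.23, 95% interval −0.14 to 0.82, edgeR adjusted p = 0.596). Its interval holds both the control level and a level 1.77 times as high.

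Bcl2l11 (ENSMUSG00000027381, chromosome 2, 128126038 to 128162547, plus strand), which encodes BIM and is the most abundant of the BH3-only members in TPM, was at 29.4, 29.8, 35.2 and 31.7 CPM in cKO and at 33.7, 37.7, 36.0 and 30.5 CPM in control replicates 1 to 4. cKO replicates 1 and 2 lay below every control library, and the other cKO libraries within the control range. The log2 fold change was −0.13 (SE 0.078, 95% interval −0.29 to 0.036, edgeR adjusted p = 0.546), with values from −0.18 to −0.074 under the alternatives.

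Of the prosurvival genes, Mcl1 (ENSMUSG00000038612, chromosome 3, 95658788 to 95663176, plus strand) was at 165, 160, 169 and 178 CPM in cKO and at 171, 164, 169 and 167 CPM in control replicates 1 to 4. Its lowest and its highest library were both cKO, and the log2 fold change was 0.0018 (SE 0.053, 95% interval −0.11 to 0.11, edgeR adjusted p = 0.997). Bcl2l1 (ENSMUSG00000007659, chromosome 2, 152780668 to 152831728, minus strand) ranged from 42.3 to 47.5 CPM in cKO and from 41.5 to 47.4 CPM in controls, with a log2 fold change of −0.023 (95% interval −0.16 to 0.11, edgeR adjusted p = 0.938). Bcl2 (ENSMUSG00000057329, chromosome 1, 106538178 to 106714274, minus strand) ranged from 31.4 to 39.998 CPM in cKO and from 30.6 to 36.9 CPM in controls, with a log2 fold change of 0.015 (95% interval −0.16 to 0.19, edgeR adjusted p = 0.970). The sign of all 3 turned under at least 1 alternative, so no direction is given for them. The widest of these intervals, that of Bcl2, reaches from 0.897 to 1.14 times the control level.

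Summed by class on the TPM scale, the effectors Bax and Bak1 came to 180 ± 4.30 TPM in cKO and 186 ± 8.28 TPM in control libraries (mean ± SD over 4). The prosurvival members came to 129 ± 5.27 TPM and 127 ± 0.808 TPM, and the BH3-only members to 17.7 ± 1.64 TPM and 18.9 ± 1.57 TPM. In every library the effector sum of the members was above their prosurvival sum, and their BH3-only sum was the lowest. Other genes of each class were left out of these sums. Bad, a further BH3-only gene, was at 34.95 to 41.6 TPM, above the sum of the 3 BH3-only members (15.8 to 20.6 TPM). The log2 ratio of effectors to prosurvival genes was 0.466, 0.493, 0.576 and 0.415 in cKO and 0.60, 0.493, 0.502 and 0.621 in control replicates 1 to 4. Here, too, 3 of 4 cKO libraries were below every control library and cKO replicate 3 was among the controls, with cKO replicate 2 equal to control replicate 2 to 3 digits. The difference of the means was −0.0665, about the SD within each group (0.067 in cKO and 0.066 in controls), and no test was made on it.

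**Figure D3:**
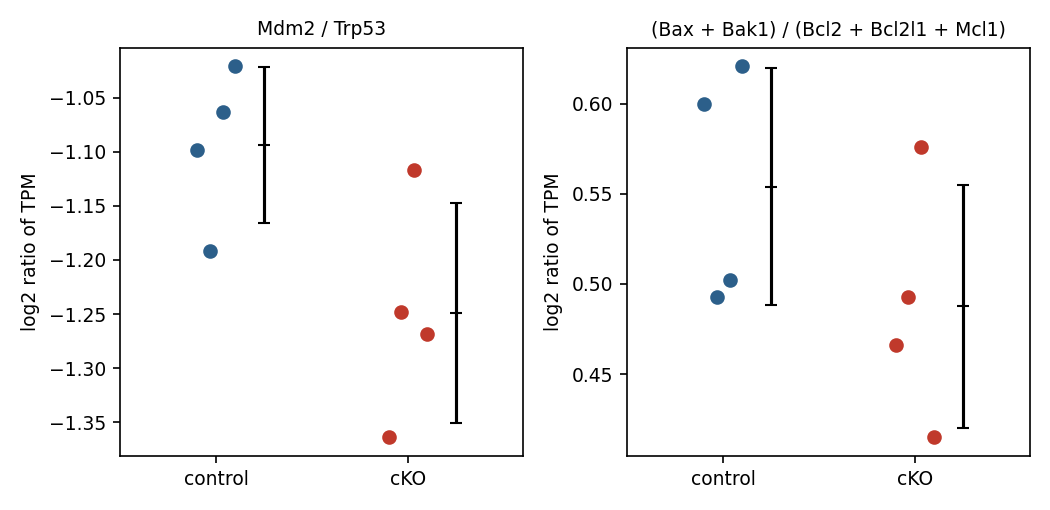
Log2 ratio of TPM in each library for Mdm2 to Trp53 (left) and for Bax and Bak1 together to Bcl2, Bcl2l1 and Mcl1 together (right), with 1 point per library and the mean ± SD of 4 libraries beside each group. In both ratios the groups overlap, 3 of the 4 cKO points lie below every control point, and cKO replicate 3 lies inside the control range, at −1.12 on the left and 0.576 on the right.

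The other genes of the pathway were examined in 4 lists of 92 genes, of which 89 passed the filter on low counts. None of the 89 passed the threshold with edgeR, and 12 had an unadjusted p under 0.05, 8 of them higher and 4 lower in cKO, against the 12.8% of all genes tested and 18.3% of genes with a mean of at least 1 CPM that had such a p. DESeq2 called 3 of the 89, all higher in cKO, and 867 of the 26820 genes given to it. It left genes with a low mean count out of its adjustment, so its adjusted p-values cover fewer genes than those of edgeR. Without a filter on low counts edgeR called 5 of 91, and 878 of all 33484 genes.

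Of 30 further p53 target genes, 27 had a mean of at least 1 CPM. By the fitted value 18 of the 30 were higher in cKO. So were 13361 of all 26820 genes tested and 6408 of the 14302 with a mean of at least 1 CPM. The median log2 fold change was −0.00085 and −0.017 over these sets, and 0.068 over the 30 targets. None passed with edgeR, while 6 had an unadjusted p under 0.05, 5 of them higher, where 18.3% of all genes with a mean of at least 1 CPM had such a p. The lowest p-values belonged to Btg2, an antiproliferative gene, Eda2r, a receptor of the TNF receptor family, and Cdkn1a, which encodes the cyclin-dependent kinase inhibitor p21. Btg2 was at 41.5, 30.9, 36.0 and 39.02 CPM in cKO and at 28.6, 30.2, 31.5 and 29.0 CPM in control replicates 1 to 4, a log2 fold change of 0.31 (SE 0.081, edgeR adjusted p = 0.0946 and 0.0181 by DESeq2). Eda2r was at 10.8, 9.27, 9.83 and 10.01 CPM in cKO and at 7.78, 6.28, 8.27 and 7.91 CPM in control replicates, a log2 fold change of 0.40 (SE 0.11, edgeR adjusted p = 0.104 and 0.0110 by DESeq2). Eda2r was the only target of the 30 whose groups did not overlap in CPM, where 6.91% of all genes tested did not. Cdkn1a was at 25.1, 20.5, 25.3 and 29.5 CPM (cKO) and at 19.0, 15.8, 23.5 and 20.3 CPM (control), a log2 fold change of 0.35 (SE 0.12, edgeR adjusted p = 0.182). For Btg2 and Cdkn1a, 3 of 4 cKO libraries exceeded all the controls. With 1 surrogate variable the log2 fold change was 0.16 for Btg2 (edgeR adjusted p = 0.811) and 0.21 for Cdkn1a (0.877). For Eda2r it was 0.38 (0.577), close to the main value. Without cKO replicates 1 and 4, a fit chosen after seeing the data, it was 0.17 for Btg2 (edgeR adjusted p = 0.610) and 0.23 for Cdkn1a (0.726). For Eda2r it was then 0.34 (0.471). Btg2 and Eda2r were highest in the libraries left out, so that fit lowers their values whatever the reason for the levels. Whether the higher endothelial and macrophage marker levels of the cKO libraries have a part in these values was not tested.

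**Figure D4:**
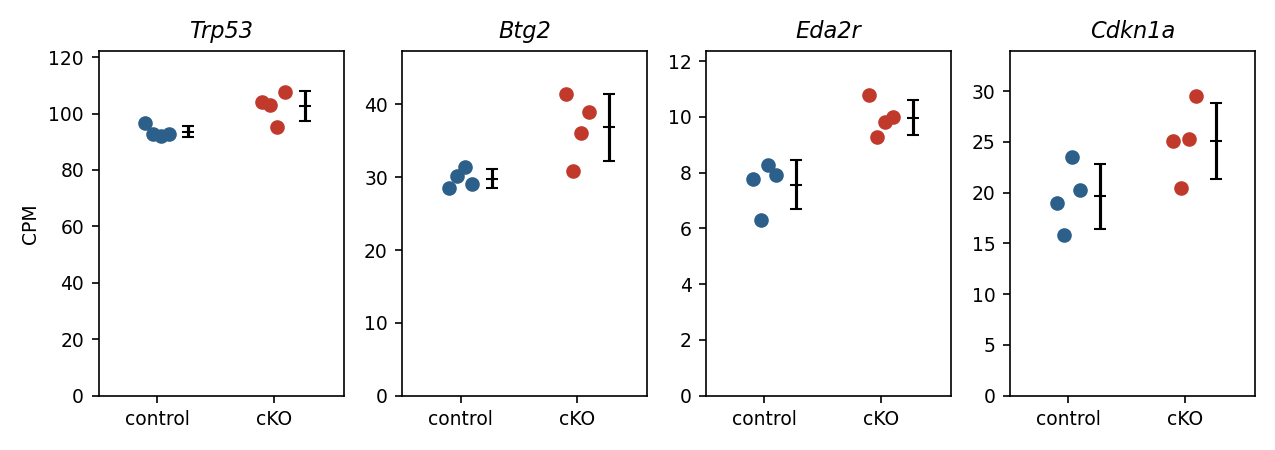
CPM of Trp53 and of the 3 further p53 target genes with the lowest p-values in each library, on axes that start at 0, with 1 point per library and the mean ± SD of 4 libraries beside each group. The groups of Eda2r do not overlap (9.27 to 10.8 against 6.28 to 8.27 CPM), and those of Trp53, Btg2 and Cdkn1a do.

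Among 24 regulators and relatives of p53, 12 were higher in cKO and the median log2 fold change was −0.0023. Ppp1r13b, which encodes ASPP1, a p53-binding protein, was at 61.3, 57.4, 48.8 and 67.6 CPM in cKO and at 47.1, 47.60, 43.3 and 49.3 CPM in control replicates 1 to 4. Its log2 fold change of 0.33 (SE 0.082) had the lowest adjusted p of all 89 genes, 0.0773 by edgeR and 0.00923 by DESeq2, and 3 of 4 cKO libraries were above every control. With 1 surrogate variable it was 0.14 (edgeR adjusted p = 0.83). Without cKO replicates 1 and 4, a fit chosen after seeing the data, it was 0.19 (edgeR adjusted p = 0.511). Ppp1r13b was highest in those libraries, so leaving them out lowers the value whatever the reason for their levels. Chek1, the DNA replication checkpoint kinase, ranged over 23.7 to 28.1 CPM (cKO) against 29.5 to 31.3 CPM (control), without overlap (log2 fold change −0.19, SE 0.068, edgeR adjusted p = 0.228). It was the only 1 of the 24 genes without overlap. The share was 6.91% over all genes tested and 9.96% over those with a mean of at least 1 CPM. Ep300, a p53 acetyltransferase, had a log2 fold change of 0.15 (SE 0.070, edgeR adjusted p = 0.367).

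The 15 other Bcl2 family genes held 3 Bcl2a1 genes that were nearly without reads (0 to 5 counts in total) and 12 that were tested, 8 of them with a mean of at least 1 CPM. Of the 12, 8 had a higher fitted level in cKO and the median was 0.041 (log2), and 0 had an unadjusted p under 0.05 by edgeR. The lowest p-values were those of Bid, which links death receptors to mitochondria (log2 fold change −0.19, SE 0.095, edgeR adjusted p = 0.417), and the BH3-only genes Bad (−0.12, SE 0.065) and Bik (0.18, SE 0.13).

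Downstream of the mitochondria, 7 of 23 genes of the apoptosome, caspases and their inhibitors had a higher fitted level in cKO, the median being −0.069 (log2). Of the 14302 genes with a mean of at least 1 CPM, 6408 had a higher fitted level, with a median of −0.017. In the list 1 higher and 1 lower gene had an unadjusted p under 0.05 by edgeR, against 18.3% of those 14302 genes. Htra2, a mitochondrial protease released in apoptosis, ranged over 29.6 to 33.0 CPM (cKO) against 33.8 to 36.6 CPM (control), without overlap (log2 fold change −0.18, SE 0.061, edgeR adjusted p = 0.201). Of the 23 genes 2 were without overlap, against 9.96% of all genes with a mean of at least 1 CPM. Birc6, an inhibitor of apoptosis, had a log2 fold change of 0.18 (SE 0.075, edgeR adjusted p = 0.320) and Vdac1, a channel of the outer mitochondrial membrane, one of −0.11 (SE 0.054, edgeR adjusted p = 0.396).

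**Figure D5:**
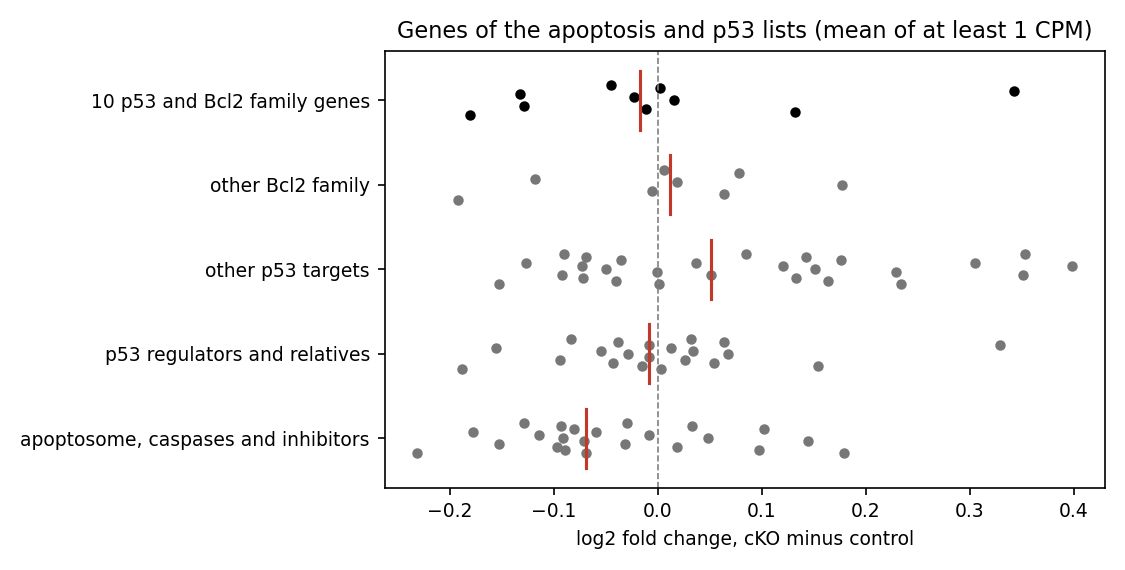
Log2 fold change (cKO minus control, edgeR) of the 10 p53 and Bcl2 family genes and of the other lists, with 1 point per gene of a mean of at least 1 CPM and a red bar at the median of the points shown. The 10 genes span −0.18 to 0.34, and the 27 further p53 targets shown span −0.15 to 0.40.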

How the data were processed

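Raw counts by gene symbol, not normalized, and TPM values, scaled for gene length and to 1 total, were deposited by the authors in 1 column per library. The methods name the nf-core/rnaseq workflow and GRCm39, and the submitters' processing notes name HISAT2 2.2.1, StringTie 2.2.1 and featureCounts. Of 37924 genes placed in both annotations, 85.76% had table positions within 1000 bases of their GRCm38 start and 3.26% of their GRCm39 start, so positions are given as GRCm38. The error given is the spread between libraries, which is counting error plus all else; the methods give 1 animal or embryo as the usual experimental unit and count replicates as biological, while the labels do not say how many embryos went into a library.

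The main test on the counts was the quasi-likelihood F test of edgeR 4.0.16 in R 4.3.3, with TMM factors and condition as the only term, over 26820 genes whose total reached 8 counts; p-values were adjusted by Benjamini-Hochberg over all of these, and the code was tested on simulated data. Standard errors are the absolute log2 fold change divided by the square root of F. Alternatives were DESeq2 1.42.0, limma 3.58.1 (voom, and log2 TPM with pseudocounts of 1 and 0.1, and with a mean of at least 1 TPM), DESeq2 size factors, no filter, filterByExpr, a replicate block, 1 surrogate variable (sva 3.50.0) and each library left out. Libraries of a group were not copies of each other (chi-square per degree of freedom 11.0 to 35.3 over 12 pairs). The members and lists were chosen with earlier results of these data known. Named genes were the 10 members and, from each further pathway list, genes past the threshold and the 3 with the lowest p. Of the marker lists (cardiomyocyte, endothelial and endocardial, macrophage, erythroid, epicardial, cushion mesenchyme, hepatic and yolk sac), only counts and summed levels were used. For the endothelial and endocardial list the score per library was used as well.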

Additional observations from a re-analysis of the deposited data

Results flagged for a closer look

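Trp53 in control replicate 1, at 96.5 CPM, stood apart from the other controls at 92.2 to 92.8 CPM, its gap to the nearest being 0.859 of the range of the group. Bid in cKO replicate 1, at 11.4 CPM, stood apart from the other cKO libraries at 9.35 to 9.68 CPM (0.845 of the range). Of the 48 groups of 4 values examined in this way 2 stood apart, where chance alone marks about 1 in 20. Without control replicate 1 the Trp53 log2 fold change was 0.15 (adjusted p = 0.351 by edgeR), and without cKO replicate 1 that of Bid was −0.26 (adjusted p = 0.345 by edgeR).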

How the results depend on the processing

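The count of 0 members past the threshold was the same under all 19 alternatives, and Pkn2 kept its call and direction in each. Trp53, Bax, Bbc3, Pmaip1 and Bcl2l11 kept their directions under all 19. Mdm2 turned to 0.015 with limma on log2 TPM (both pseudocounts, and with the filter on TPM), to 0.011 with 1 surrogate variable, and spanned −0.034 to 0.026 over the fits without 1 library. With the surrogate variable Bak1 was 0.013, Mcl1 −0.038 and Bik −0.13. Over the fits without 1 library Bcl2 spanned −0.058 to 0.059, Bcl2l1 −0.052 to 0.010 and Mcl1 −0.020 to 0.033, and Bik 0.061 to 0.29. Without cKO replicates 1 and 4 together, an alternative chosen after seeing the data, Mdm2 was 0.016, Bcl2 0.085, Bcl2l1 −0.057, Mcl1 −0.021 and Bik −0.14. The count over all genes was 230, and it was 867 with DESeq2, 878 with no filter, 380 with the replicate block, 2 and 5 with limma on log2 TPM (pseudocounts of 1 and 0.1), 35 with the TPM filter, 34 with 1 surrogate variable and 103 without cKO replicates 1 and 4. Without 1 library it spanned 67 to 744: 71 without cKO replicate 1, 744 without cKO replicate 3, and 67, 135, 87 and 69 without control replicates 1 to 4. The causes were not tested. Of the 89 further pathway genes, 3 passed with DESeq2, 5 of 91 with no filter, 1 with the replicate block (Ppp1r13b, adjusted p = 0.0263), and 0 to 2 without 1 library (2 without cKO replicate 2, 1 without cKO replicate 3). Numbers were not used to pair libraries in the main test: no library of 8 correlated best with its own number, and same-numbered libraries had correlations of −0.19, −0.03, 0.0056 and −0.14 over 14302 genes. Depth limits Pmaip1 and Bbc3 most, where counting error alone is 10.2% and 6.14% of the level per library.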
